A study of Mus musculus with 24 samples.

Results

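The miR-34 family was followed across the soleus of 12 male mice. Its members were taken by name, as the assays for miR-34a, miR-34b or miR-34c without an asterisk, an asterisk marking the less abundant strand of a microRNA hairpin. The rule found 3 of 584 microRNA assays: miR-34a, miR-34b-3p and miR-34c, each measured in 1 well of card A. The name rule uses no measured value, but the family was chosen by a measured one: miR-34a (mmu-miR-34a in the files) had been named in earlier results of these data for its relative abundance in MCK-PPARa against control soleus. All miR-34 values that involve the MCK-PPARa animals are therefore given as a description, without a test.

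MicroRNA was measured by real-time PCR (TaqMan assays on 2 cards, A and B) in 4 groups of 3 mice aged 12 weeks. MCK-PPARa mice carry a transgene for the nuclear receptor PPARα and MCK-PPARb mice one for PPARβ, each driven in muscle by the promoter of muscle creatine kinase (MCK). NTGa and NTGb are the wild-type, non-transgenic littermates of the respective line, so line and transgene can be set apart only through these littermates. The labels give no treatment, and the strain is not given in the sources used here. The labels call the replicates biological, and each was taken as 1 animal.

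The miR-34 microRNAs are best known as direct transcriptional targets of the tumour suppressor p53. Through their shared seed, the bases that pair with target messenger RNA, they repress genes of the cell cycle and of survival and, in the case of miR-34a, the deacetylase Sirt1. miR-34a is made in many tissues from a gene of its own, whereas miR-34b and miR-34c come from 1 shared transcript that is most active in multiciliated epithelium and testis, as is the related miR-449 cluster.

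The sequences show which assays read the same seed and which read the other arm of a hairpin. Mature sequences are from the RefSeq table for GRCm38.p6, written 5′ to 3′ with the seed (bases 2 to 8) in capitals.
miR-34a-5p: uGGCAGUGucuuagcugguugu
miR-34b-5p: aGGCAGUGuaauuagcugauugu
miR-449a-5p: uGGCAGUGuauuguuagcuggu
miR-449c-5p: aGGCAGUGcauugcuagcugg
miR-34b-3p: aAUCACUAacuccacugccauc
miR-34c-3p: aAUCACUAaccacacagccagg
The first 4 share the seed GGCAGUG and the last pair the seed AUCACUA. A mature sequence for the miR-34c assay was not used here, so no seed is shown for it. The assay named miR-34a reads the 5p arm, and the assay named miR-34b-3p reads the opposite arm, whose seed differs. Counted position by position from the 5′ end without gaps, miR-34a-5p and miR-449a-5p are identical at 15 of 22 bases. By this count miR-34a-5p and miR-34b-5p are identical at 11 of 22, and miR-34b-3p and miR-34c-3p at 17 of 22. After the seed, miR-34b-5p (23 bases) and miR-449a-5p carry a stretch of miR-34a-5p at a shifted position. The counts miss such stretches and do not rank the strands by likeness. The asterisk assay miR-34c* of card B, which is no member, was read as the strand that RefSeq names miR-34c-3p, the seed partner of miR-34b-3p.

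The Mir34b hairpin shows how both arms come from 1 precursor, with the 5p and then the 3p strand in capitals.
Mir34b hairpin: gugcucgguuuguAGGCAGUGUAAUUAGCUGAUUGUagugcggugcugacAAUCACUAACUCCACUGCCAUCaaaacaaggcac
It lies on the minus strand at chr9:51103562-51103645 of GRCm38.p6, 451 bases from Mir34c and, like Mir34c, within the spans of the annotated genes Hoatz and Btg4. miR-34a-5p lies on the plus strand at chr4:150068473-150068494, and no other gene of the table overlaps Mir34a, whose neighbours are Gm13067 and Gpr157. miR-449a-5p lies at chr13:113037549-113037570, within the span of Cdc20b.

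The files hold a cycle threshold (Ct), the cycle at which fluorescence crosses a set level, so that a lower Ct means more template and 1 cycle corresponds to a factor of 2 at full efficiency. A microRNA counted as detected below Ct 35, and 248 to 296 of 584 were detected per animal. Of 7 markers of the labelled tissue, 6 were detected in all 12 animals, among them miR-206 at a Ct of 18.0 to 18.9 and miR-499 at 27.5 to 32.2, and miR-208b was detected in 9. Of 12 epithelial markers, 2 were detected in no animal (miR-449b and miR-183) and miR-203 alone was detected in all 12. 2 animals stood apart. The median correlation of MCK-PPARa replicate 1 with the other animals was 0.933, against 0.960 to 0.974 for the rest, and NTGb replicate 2 had the most detected microRNAs (296) beside 261 and 248 in the other NTGb animals.

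miR-34a was detected in all 12 animals. Its Ct was 29.9, 29.5 and 30.0 in MCK-PPARa replicates 1 to 3 and 30.3, 30.9 and 30.9 in the NTGa animals. It was 31.4, 30.6 and 31.7 in NTGb and 31.1, 32.6 and 31.8 in MCK-PPARb. Without any scaling, the 3 MCK-PPARa animals thus had the lowest Ct of all 12.

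miR-34b-3p came up later in most animals, at a Ct of 29.9 to 35.6. Its Ct was 33.9, 32.4 and 32.1 in NTGa, 32.2, 31.4 and 31.5 in MCK-PPARa, 33.5, 29.9 and 34.1 in NTGb and 31.4, 32.4 and 35.6 in MCK-PPARb. It was detected in 11 of 12 animals, all but MCK-PPARb replicate 3. The lowest Ct belonged to NTGb replicate 2 and the highest to MCK-PPARb replicate 3, so the widest spread lay inside the groups of the MCK-PPARb line.

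The assay for miR-34c, from the same transcript, was nearly empty. Whether the assay or the microRNA was weak was not tested. A Ct was called in 4 of 12 animals, at 38.1 in NTGa replicate 1, 36.6 and 34.7 in NTGb replicates 1 and 2 and 36.3 in MCK-PPARb replicate 3, and in 0 of 3 MCK-PPARa animals. Only the 34.7 was under the detection limit, so miR-34c was not tested. Just inside and just outside that limit of Ct 35 stood miR-34c at 34.7 in NTGb replicate 2 and miR-34b-3p at 35.6 in MCK-PPARb replicate 3. Assays differ in efficiency, so these Ct values do not give the ratio of one family member to another.

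**Figure D1:**
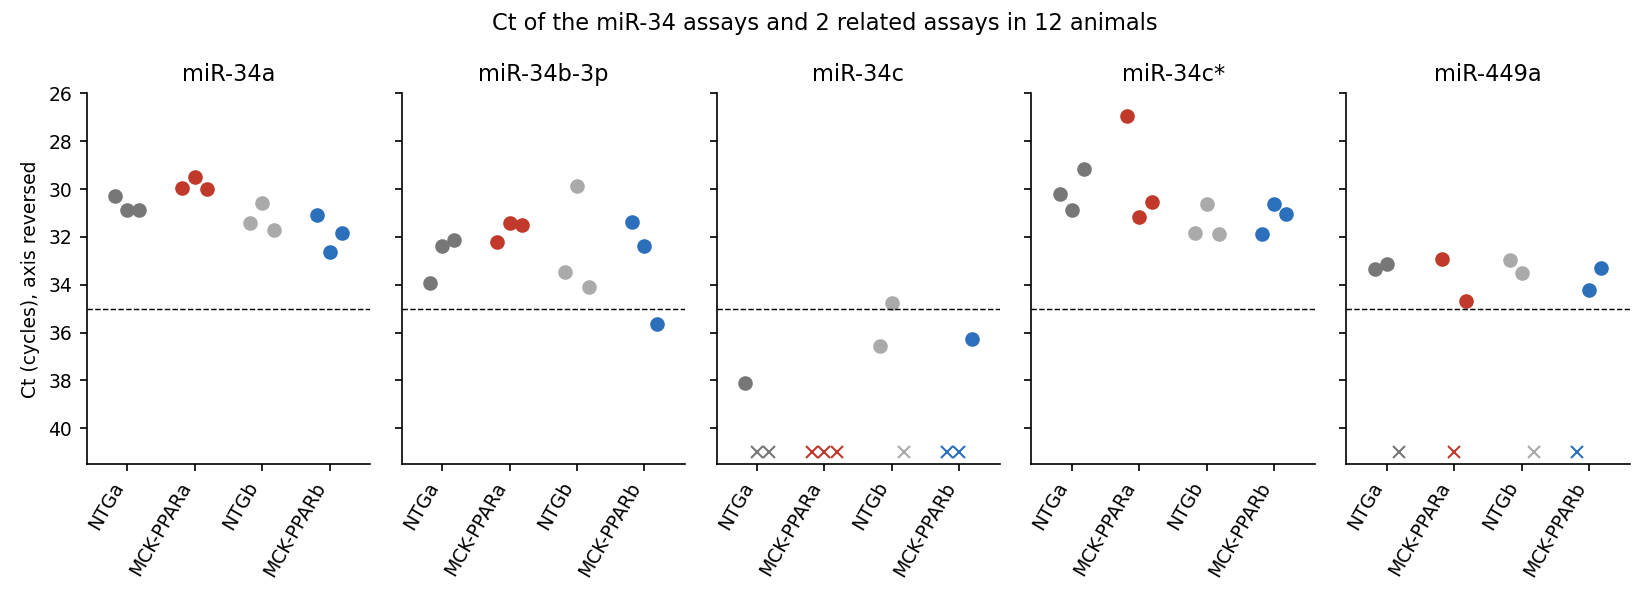
Ct in cycles (vertical axis, reversed so that more template is higher) of the 3 miR-34 members and of miR-34c* and miR-449a, by group; each point is 1 animal in the order of replicates 1 to 3, a cross marks no Ct, and the dashed line is the detection limit at Ct 35. miR-34a sits between 29.5 and 32.6 in all 12 animals, while miR-34c has a Ct in 4.

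For comparison between animals the values were scaled: relative abundance is the mean Ct of the 149 card A microRNAs detected in all animals minus the Ct of the assay, in log2 units. A scaled value below -6.56, or not detected, was set to that floor. On this scale miR-34a stood at -1.89, -1.55 and -2.11 in MCK-PPARa, and at -2.51, -3.22 and -2.94 in NTGa. It stood at -3.03, -3.00 and -3.27 in NTGb and at -2.96, -4.62 and -3.68 in MCK-PPARb. The 3 MCK-PPARa animals lay above each of the other 9, whereas the other groups overlapped one another.

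The group means of miR-34a, in order, were -1.85 ± 0.284 (SD, n = 3) in MCK-PPARa, -2.89 ± 0.359 in NTGa, -3.10 ± 0.148 in NTGb and -3.75 ± 0.833 in MCK-PPARb. NTGa and NTGb did not differ beyond their spread, at a log2 difference of 0.21 (95% interval -0.63 to 1.04; limma adjusted p = 0.808). NTGb and MCK-PPARb, the next neighbours, did not either, as given below. The step from MCK-PPARa to NTGa was in view when the family was picked, so it is given below as a description and was not tested. The residual SD of miR-34a between animals of a group was 0.481. Of 40 tested card A assays with a mean Ct from 30 to 32, the class of miR-34a, 27 had a larger one. The median of the 40 was 0.598.

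**Figure D2:**
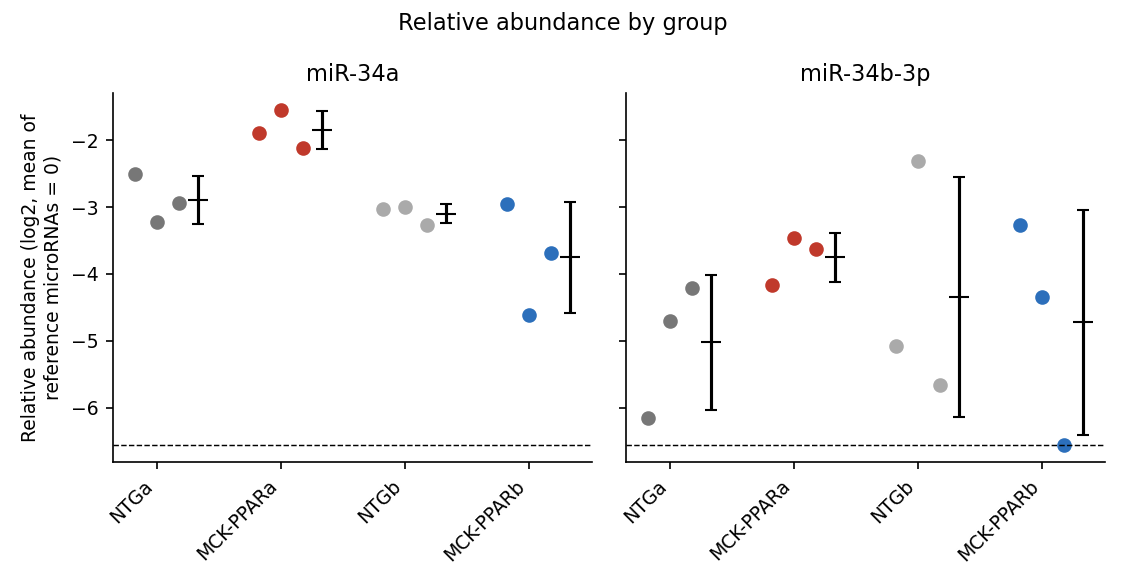
Relative abundance (log2, reference microRNAs at 0) of miR-34a and miR-34b-3p by group; points are animals, the bar beside them is the mean ± SD (n = 3) and the dashed line is the floor at -6.56. The 3 MCK-PPARa animals have the highest miR-34a, and miR-34b-3p ranges from the floor to -2.31 within the MCK-PPARb line.

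In MCK-PPARa soleus, the miR-34a level was 2.06-fold that of NTGa, a log2 difference of 1.04 (SE 0.38), the 20th highest of 268 tested assays. miR-34b-3p was at 2.41-fold, or 1.27 (SE 0.96). Across all tested assays the median log2 difference was 0.12. For both tested members the groups did not overlap, MCK-PPARa being higher, where 14.9% of tested assays did so in that direction. For miR-34b-3p the gap was narrow, between -4.17 in the lowest MCK-PPARa and -4.21 in the highest NTGa animal. Since this comparison was in view when the family was picked, nothing is read from that share. Without NTGa replicate 1, the log2 difference of miR-34b-3p was 0.70.

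The position of the MCK-PPARa animals did not hang on the reference chosen for scaling. In 5 of 5 settings, namely the mean or the median of the detected microRNAs, the endogenous small RNA controls, U6 snRNA and no scaling, the 3 MCK-PPARa animals had more miR-34a than each of the other 9. The share of tested assays with this pattern was 4.1% with the mean, 2.24% with the median, 3.73% with the controls, 5.22% with U6 snRNA and 2.61% without scaling. miR-34b-3p did not have it in any of the 5, since NTGb replicate 2 stood above every MCK-PPARa animal. MCK-PPARb replicate 1 also stood above every MCK-PPARa animal in each setting except U6 snRNA. With the mean it was at -3.27, where the highest MCK-PPARa animal was at -3.47. For miR-34a the gap was narrowest with U6 snRNA, between -10.16 in the lowest MCK-PPARa animal and -10.42 in the highest of the other 9. All 5 settings use the same wells, and the family was picked with the MCK-PPARa animals in view. They are therefore no separate evidence.

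In MCK-PPARb soleus neither tested member passed the test against NTGb. miR-34a had a log2 difference of -0.66 (SE 0.38, 95% interval -1.49 to 0.18; limma adjusted p = 0.559), the lowest 2 of the 6 animals being MCK-PPARb replicates 2 and 3. MCK-PPARb replicate 1, at -2.96, lay above every NTGb animal. miR-34b-3p had a log2 difference of -0.38 (SE 0.96, 95% interval -2.51 to 1.75; limma adjusted p = 0.882). The interval of miR-34a leaves out a rise of 1.04, the value in the other line, and that of miR-34b-3p includes a rise of 1.27. Those 2 values have an SE of their own (0.38 and 0.96) and come from the animals on which the family was picked. Setting the intervals beside them is therefore no test of a difference between the lines. The groups overlapped for both members, where 15.3% of tested assays had groups that did not. The fit called 0% of the 268 assays here (8.58% had an unadjusted p under 0.05), and 1 assay, no miR-34 member, with animal weights, without NTGb replicate 2 or without MCK-PPARb replicate 3.

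Single animals set much of the MCK-PPARb values. Without MCK-PPARb replicate 2, the animal with the least miR-34a, the log2 difference of miR-34a was -0.23, and without replicate 1 it was -1.04. miR-34b-3p turned positive without NTGb replicate 2 (0.64) and without MCK-PPARb replicate 3 (0.53), the animals with its highest and lowest level.

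The transgenic groups were also set against each other. MCK-PPARa exceeded MCK-PPARb in miR-34a by a log2 difference of 1.90 (SE 0.38), or 3.74-fold, with no overlap, as in 13.8% of tested assays in that direction. This was the 5th highest of 268 assays, at a median over all of 0.03. miR-34b-3p differed by 0.97 (SE 0.96) with overlapping groups, and by 0.05 without MCK-PPARb replicate 3. The MCK-PPARa animals are those on which the family was picked, so this too is a description.

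Setting each transgene's effect against that of the other gave a difference of 1.70 (SE 0.53) for miR-34a and 1.65 (SE 1.36) for miR-34b-3p in log2 units. These values hold the MCK-PPARa animals as well and are a description. For miR-34b-3p the value was 0.63 without NTGb replicate 2, 0.73 without MCK-PPARb replicate 3, 1.08 without NTGa replicate 1 and 0.73 with undetected values missing. The control groups differed for miR-34b-3p by -0.68 (SE 0.96; limma adjusted p = 0.746) and neither member was called between them, against 1.87% of all assays. Their animals overlapped for both members, where 19.4% of tested assays had control groups that did not. For miR-34b-3p that value was 0.34 without NTGb replicate 2. Of the direct miR-34a difference of 1.90, 1.04 lay between MCK-PPARa and NTGa, 0.21 between the control groups and 0.66 between NTGb and MCK-PPARb.

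**Figure D3:**
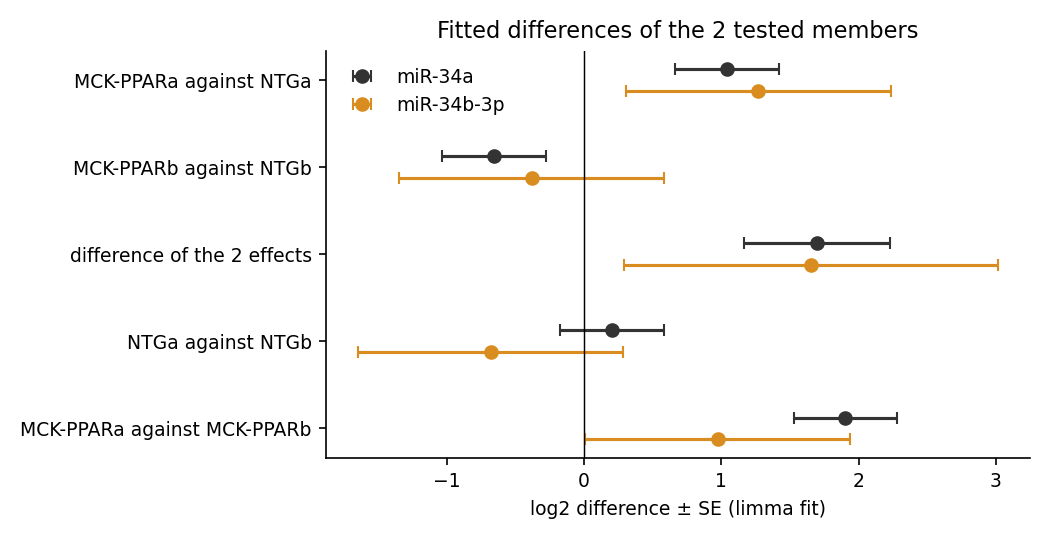
Fitted log2 differences of miR-34a and miR-34b-3p with SE (horizontal axis) in the 5 comparisons (vertical axis), over 12 animals. miR-34a runs from -0.66 in MCK-PPARb against NTGb to 1.90 between the transgenic groups, and the SE of miR-34b-3p is wider throughout.

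The miR-34a values were also computed under 15 alternative settings and 12 fits that each left out 1 animal. For miR-34a in MCK-PPARa against NTGa the log2 difference lay between 0.85 and 1.15 over the settings and between 0.87 and 1.23 without single animals. Without MCK-PPARa replicate 1, the animal that stood apart, it was 1.06. With all 6 non-transgenic animals as control it was 1.14. For miR-34a in MCK-PPARb against NTGb the range was -0.92 to -0.26 over the settings.

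**Figure D4:**
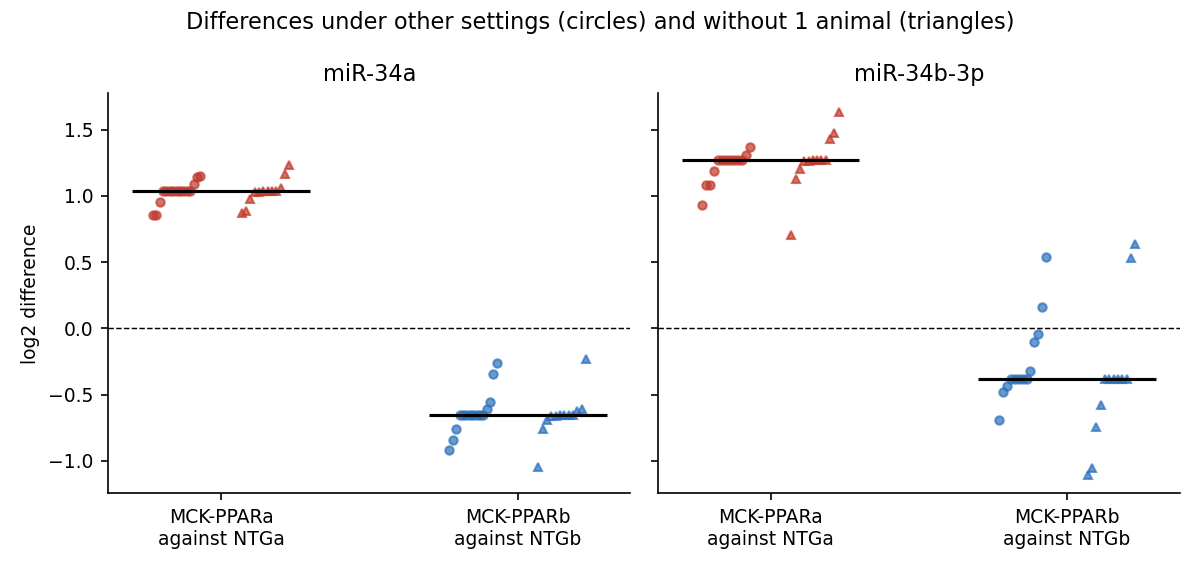
Log2 differences of miR-34a and miR-34b-3p for each transgenic group against its littermates; the horizontal line is the reported value, circles are other processing settings and triangles are fits without 1 animal. The miR-34a values keep their sign in both comparisons, and those of miR-34b-3p in MCK-PPARb cross 0.

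The related strands did not follow one pattern. miR-34c*, the other strand of the miR-34c hairpin, was detected in all 12 animals although the miR-34c assay was nearly empty. Its Ct was 27.0 in MCK-PPARa replicate 1 and 29.2 to 31.9 in the other 11 animals. Relative abundance on card B was 1.21, -2.28 and -1.87 in MCK-PPARa against -1.59, -1.98 and -0.63 in NTGa. The log2 difference of 0.42 (SE 0.78) thus came from 1 animal, and it was -0.70 without that animal, MCK-PPARa replicate 1. In MCK-PPARb it was 0.03 (SE 0.78; limma adjusted p = 0.986). Across the 12 animals, which share the scaling of their card, miR-34b-3p and its seed partner miR-34c* had a Pearson r of 0.04.

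miR-449a, which shares the miR-34a seed, was detected in 2 of 3 animals of every group, at a Ct of 32.9 to 34.7, and so was not tested. miR-449b had no Ct in any animal, and miR-449c was under Ct 35 in 1, of MCK-PPARb. After scaling, both detected animals of NTGa, NTGb and MCK-PPARb, and 1 of the 2 in MCK-PPARa, stood above the floor for miR-449a. The summed level of the 12 epithelial markers, on the linear scale with the reference mean at 1, was 0.924 to 1.10 in MCK-PPARa and 0.852 to 2.16 in NTGa. It was 0.712 to 1.13 in MCK-PPARb and 0.649 to 0.854 in NTGb. miR-203, the only one of these markers detected in all 12 animals, averaged -0.14 in MCK-PPARa and -0.38 in NTGa in log2 units. Its averages were -0.56 in MCK-PPARb and -0.65 in NTGb. This 1 marker weighs heavily in the lower sums, which hide the rarer ones. It does not make up most of the highest NTGa sum, since it averaged -0.38 with an SD of 0.05 there. Of the rarer markers, miR-200a was detected in 1 animal at a Ct of 27.4. miR-96 was detected in 2, with a lowest Ct of 28.2. A rare marker in a single animal can thus move a sum. In whole muscle, more cells of a type cannot be told apart from more RNA per cell.

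Other cell types gave overlapping sums between MCK-PPARa and NTGa. All 6 leukocyte markers were detected, 5 in all 12 animals, and summed to 32.9 to 42.3 in MCK-PPARa and 32.3 to 40.3 in NTGa. The 5 markers of smooth muscle and fibroblasts summed to 40.1 to 48.0 and 40.6 to 41.8, and the 2 endothelial markers to 465 to 582 and 494 to 567. The neural sums were 0.351 to 0.615 and 0.379 to 0.771, and the red cell microRNA miR-451 was at 0.468 to 0.962 and 0.328 to 0.508. The 7 muscle markers summed to 2927 to 3065 and 2674 to 3035, sums that hide the least abundant of them. miR-499, encoded in a myosin gene, was lower in MCK-PPARa than in NTGa by a log2 difference of -3.66 (SE 0.30; limma adjusted p = 3.94e-05), while miR-34a was higher by 1.04. miR-208b, also encoded in a myosin gene, was at the floor in each MCK-PPARa animal (-6.56) and averaged -5.25 in NTGa (limma adjusted p = 0.334). The liver marker miR-122 had a Ct in a single animal (34.8, MCK-PPARb). The part of any of these markers in the miR-34a level was not tested.

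Other microRNAs of the p53 pathway were taken as a list of 14, of which 13 were assayed and tested. It holds microRNAs transcribed under p53 (miR-34a aside, the miR-192, miR-194 and miR-215 clusters), those whose processing p53 aids (miR-143, miR-145, miR-16) and others reported to act with it. In MCK-PPARa against NTGa, 3 of 13 were called higher and 0 lower. Over all 268 tested assays 1.12% were called higher, and these were the same 3, so that share is no separate background. They were miR-192 (log2 1.01, SE 0.22), miR-194 (1.40, SE 0.23) and miR-215, at least 4.46-fold, a bound because the 3 NTGa animals had values at the floor. These 3 were known from earlier results when the list was drawn up, so their count is no independent evidence. miR-215 was detected in 5 animals and met the detection rule for testing only through MCK-PPARa, the group in which it was high. Of the list, 9 of 13 were above 0, beside 58.6% of all assays, and its median was 0.19 beside 0.12.

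The other 10 members of the list did not pass in MCK-PPARa. miR-107 (log2 0.94, SE 0.56, with 2 of 3 NTGa animals at the floor) and miR-15a (0.70, SE 0.47) were the highest, and miR-29c (-0.44, SE 0.22) and miR-200c (-0.40, SE 1.15) the lowest. miR-200c was at the floor in 2 of 3 animals of both groups, so its value is imprecise. In MCK-PPARb against NTGb, 0 of 13 were called, 8 of 13 were above 0 beside 51.5% of all assays, and the median was 0.21 beside 0.02. miR-192 and miR-194 were at 0.60 and 0.62 there, while miR-34a was at -0.66. Close to miR-34a were the lowest of the list, miR-29b at -0.68 and miR-16 at -0.61. The highest of the list was miR-200c at 2.07 (SE 1.15), with 1 NTGb animal at the floor.

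**Figure D5:**
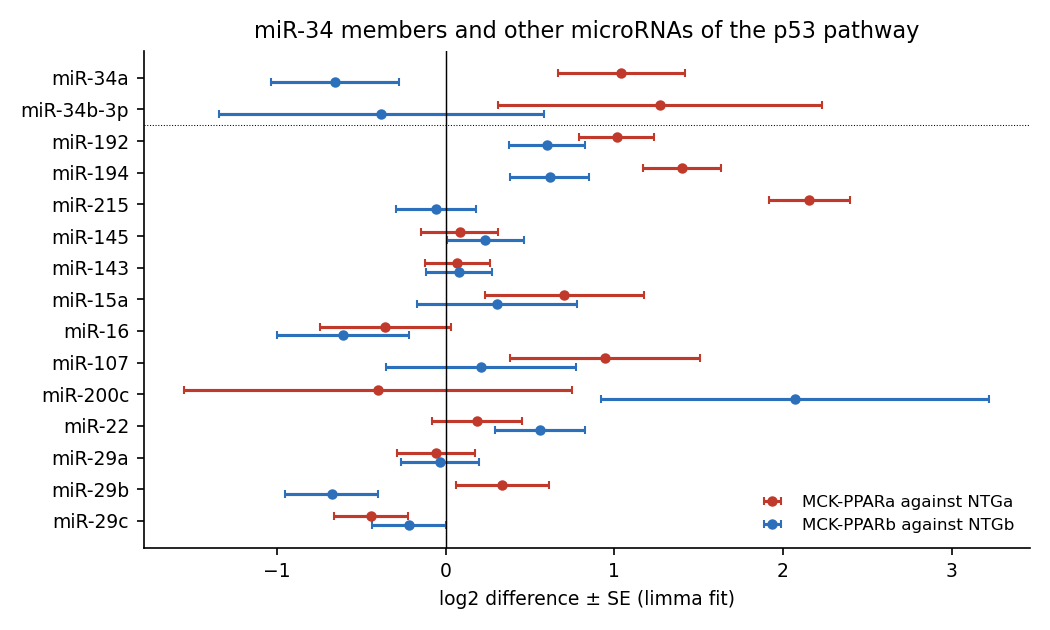
Log2 differences with SE (horizontal axis) of the 2 tested miR-34 members, above the dotted line, and of the 13 tested microRNAs of the p53 pathway, in MCK-PPARa against NTGa and MCK-PPARb against NTGb. The miR-215 value in MCK-PPARa is a bound, the NTGa animals being at the floor.

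The microRNAs whose level followed miR-34a most closely over the 12 animals, among 207 others detected in all of them, were miR-486 (Pearson r 0.74), miR-877* (0.69), miR-146a (0.67), miR-135a* (0.61) and miR-29b (0.58). miR-486, encoded in the muscle gene Ank1, had its highest mean in MCK-PPARa (4.70) and its lowest in MCK-PPARb (3.76), with 4.01 in NTGa and 4.04 in NTGb. Once each group's mean was taken off, the 5 highest were other microRNAs, namely miR-148b (0.78), miR-296-5p (0.74), miR-24-2* (0.71), miR-185 (0.70) and miR-103 (0.68). The first 2 of these lay near the floor of -6.56. Group means ran from -6.07 to -4.59 for miR-148b and from -5.67 to -5.03 for miR-296-5p. The animals share the scaling of each card, and all these r values are descriptions of 12 points. miR-34a and miR-34b-3p, at separate loci, had an r of 0.30.

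In the order of relative abundance on card A over the 6 non-transgenic animals, miR-34a ranked 120th of 180 tested assays at -2.99 ± 0.270 (SD, n = 6), and miR-34b-3p 144th. This is an order of Ct, since assays differ in efficiency. The assays next to miR-34a were miR-337-3p (-2.77 ± 0.855) and miR-185 (-2.86 ± 0.386) above it, and miR-384-5p (-3.00 ± 0.713) and miR-708 (-3.06 ± 0.559) below. These neighbours lay within 1 SD of it. In MCK-PPARa against NTGa they spread to both sides, with miR-185 at a log2 difference of 1.34, miR-384-5p at 0.09, miR-708 at -0.60 and miR-337-3p at -1.55.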

How the data were processed

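Ct values, entered as a score in cycles, were deposited by the authors 1 per well and not normalized, per the file headers. Per the labels' protocols, RNA from RNAzol B was run as TaqMan assays for 40 cycles. Software and threshold settings were not stated in the sources used here. Every data column matched a sample by name, and 0 were left over. Wells of an assay on a card were averaged, an empty well beside a called one counting as Ct 40. Scaling, the limit of Ct 35 and the floors (-6.56 on card A, -5.66 on card B) are as in the report. Testing required detection in each of the 3 animals of some group, which 268 of 584 assays met. One limma model (version 3.58.1; R 4.3.3; lmFit, then eBayes) gave the group means of the 12 animals (8 residual degrees of freedom), with two-sided p-values adjusted by Benjamini-Hochberg over the 268 and a threshold of 0.05. The fit was tested on simulated data. Precision is limited by 3 animals a group and 1 well per miR-34 assay. Members and lists were chosen with earlier results of these data known. Named were all members, related strands, the p53 list, the 5 most alike by each measure and the 4 neighbours in level. Within a line, same-numbered animals had deviations correlated at -0.19, 0.14 and -0.13 (MCK-PPARa) and 0.37, -0.02 and 0.22 (MCK-PPARb). Differently numbered animals were not compared in this way, so these values cannot settle whether the numbers pair animals. The main fit treated the animals as unpaired.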

Additional observations from a re-analysis of the deposited data

How the results depend on the processing

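The call status of both tested members in MCK-PPARb against NTGb and in NTGa against NTGb held under each alternative run, with adjusted p of 0.193 or more. Under a limit of Ct 32 and with assays detected in all 12 animals, miR-34b-3p could not be tested. In MCK-PPARb against NTGb, miR-34b-3p turned from -0.38 to 0.54 with undetected values missing and to 0.16 with animal weights, and lay between -1.11 and 0.64 without single animals. In NTGa against NTGb, miR-34a turned from 0.21 to -0.0844 with the median as reference. It rose to 0.76 with U6 snRNA as reference and to 0.55 without scaling. With U6 snRNA, 29 of 268 assays were called between the control groups, beside 5 in the main fit. miR-34b-3p turned there from -0.68 to 0.0401 with animal weights and to between -1.36 and 0.34 without single animals. The difference of effects for miR-34a was 1.20 with U6 snRNA as reference and 1.26 to 2.08 without single animals, and that for miR-34b-3p was 0.63 to 2.38 without single animals. miR-34c*, examined after the data were seen, lay between -0.70 and 1.07 in MCK-PPARa and between -0.15 and 0.34 in MCK-PPARb without single animals. At Ct 32, 4 animals had miR-34b-3p and 0 had miR-34c, and 4 had miR-34c with no limit. U6 snRNA as reference moved the median log2 difference of all tested assays in MCK-PPARb against NTGb from 0.02 to 0.33, where miR-34a was at -0.34. The causes were not tested. With the replicate number as a block, miR-34a in MCK-PPARb against NTGb stayed at -0.66 (adjusted p = 0.596), and the block changed no call of a member in the tested comparisons. Late cycles limit miR-34b-3p and miR-34c, each read in 1 well.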
